A study of Mus musculus with 20 samples.

Results

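Small nucleolar RNA (snoRNA) genes were described in the lungs of rats with and without bleomycin injury. The members are the rows that the gene table types as snoRNA and that reached 0.5 FPKM (fragments scaled to gene length and library size) in at least 5 of 20 libraries. There are 173 such rows among the 591 snoRNA rows and the 23799 rows of the table, and 15875 rows of all types pass the same filter. The members comprise 88 box C/D snoRNAs, 73 box H/ACA snoRNAs, 1 row with the name of a Cajal body RNA and 11 whose description gives no class. Sets are named here by these descriptions, and many members carry only a locus number and a family name.

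Lung RNA was measured in 4 groups of 5 rats of the outbred Sprague Dawley stock. These were males with bleomycin-induced acute lung injury, sham males, females with bleomycin-induced acute lung injury and sham females. Bleomycin is a glycopeptide that breaks DNA strands, and the series title names the difference between the sexes after this injury as its subject. The dose, route, time of tissue collection and age of the animals are not given in the labels, and their organism field says mouse although the stock, genome and gene identifiers are those of rat. Body weight was matched when the cohort was assembled, and each library is from 1 animal.

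Box C/D snoRNAs guide 2'-O-methylation of ribosomal RNA by the methyltransferase fibrillarin (Fbl), and box H/ACA snoRNAs guide pseudouridylation by dyskerin (Dkc1). Most mammalian snoRNAs lie in introns of other genes, often genes of ribosomal proteins, and are trimmed out of the excised intron. A mature snoRNA has no long poly-A tail. These libraries were made from RNA captured by its poly-A tail, so the values are those of the fragments that passed that capture. Reads of a mature snoRNA and reads of an unspliced host transcript across the same bases cannot be told apart in the table.

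Each library held between 68.6 M and 87.5 M counts (M as in megabase), and the 173 members took between 1107 and 6029 of those counts. Mitochondrial transcripts made up 7.63 ± 1.97% of counts in bleomycin males, 6.46 ± 1.23% in sham males, 4.94 ± 0.443% in bleomycin females and 6.58 ± 0.706% in sham females (SD, n = 5). Lung markers were present in all libraries, and their summed median was 12472 FPKM in bleomycin males against 48420 FPKM in sham males, and 20680 FPKM in bleomycin females against 45402 FPKM in sham females. The 4 macrophage markers summed to a median of 253 FPKM in bleomycin males and 84.0 FPKM in sham males, and to 138 FPKM in bleomycin females and 99.2 FPKM in sham females. The 4 red cell markers summed to a median of 98.1 FPKM in bleomycin males and 1875 FPKM in sham males, and to 384 FPKM in bleomycin females and 982 FPKM in sham females, and the male groups did not overlap. The 4 markers of cycling cells summed to 37.8 FPKM in bleomycin males and 10.6 FPKM in sham males, and to 55.9 FPKM in bleomycin females and 6.50 FPKM in sham females. In whole lung, fewer cells of a type and less RNA per cell cannot be told apart, and the part of these shifts in the results below was not tested. In 5 libraries (bleomycin male 2 and 5, sham male 3 and 5, sham female 1) a marker of liver, muscle, fat or heart reached 50 FPKM. For named members, the value without those 5 libraries is given where it ends a call.

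Members were short and thinly covered. Their lengths ran from 55 to 246 bases with a median of 97, and their mean levels over the 20 libraries from 0.251 to 19.9 FPKM with a median of 1.27. The median member had a mean of 11.7 counts per library, and 33 members had a mean under 5. Box C/D members had a median length of 75 bases and a median level of 1.61 FPKM, and box H/ACA members 132 bases and 1.08 FPKM. The 5 members nearest to the threshold had their fifth-highest value between 0.501 FPKM (LOC120094889, family SNORA44) and 0.540 FPKM (Snord21), and the 5 nearest rows left out between 0.453 FPKM (LOC120103273, SNORA44) and 0.492 FPKM (LOC120101260, SNORA48). With a threshold of 2 FPKM there would be 86 members. The 5 libraries of 1 group can meet the rule alone, so a row can be a member because it is high in that group. How far this shapes the members' fold changes was not tested.

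The members at the highest levels were LOC120094021 (family U82P) at a mean of 19.9 FPKM, LOC120099441 (SNORA70) at 16.2 FPKM and LOC120100233 (SNORD22) at 15.5 FPKM. LOC120094021 spans 55 bases of chromosome 7 (111625088 to 111625142, minus strand) inside Rpl3. LOC120099441 lies on the X chromosome (152056109 to 152056244, plus strand) inside Rpl10, and SNORA70 is a guide for the small-subunit ribosomal RNA in humans. LOC120100233 lies on chromosome 1 (205621734 to 205621859, plus strand). U22, its family, is needed for maturation of the small-subunit ribosomal RNA in Xenopus oocytes. Coordinates are those of the table, whose genome build is uncertain.

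The summed level of the members was higher after bleomycin in both sexes, on average 2.17-fold in males and 1.61-fold in females. In bleomycin males the 173 members summed to 80.0, 77.2, 29.2, 54.3 and 69.8 counts per M, against 40.8, 38.1, 27.7, 16.1 and 20.4 in sham males. In bleomycin females they summed to 37.0, 49.8, 48.6, 34.9 and 72.5 counts per M, against 35.9, 36.6, 30.4, 23.4 and 24.2 in sham females. The male groups overlapped through bleomycin male 3 alone, which lay below 2 sham males. The female groups overlapped through bleomycin female 4, below 2 sham females. Over all 591 snoRNA rows, without the FPKM filter, the ratio of the group means was 2.09 in males and 1.57 in females. A sum over the members was given no test.

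Both classes shared in this. Box C/D members summed to 26.3 ± 10.1 counts per M in bleomycin males and 10.7 ± 5.37 in sham males, and to 20.02 ± 6.23 in bleomycin females and 11.5 ± 3.11 in sham females (SD, n = 5). Box H/ACA members summed to 31.6 ± 9.98 in bleomycin males and 16.2 ± 4.87 in sham males, and to 25.3 ± 7.88 in bleomycin females and 16.7 ± 2.78 in sham females. The ratio of the group means was 2.13 in males and 1.57 in females without the 5 members with the most counts, so it did not rest on a few abundant rows.

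Rows typed as miRNA, another short class of the table, varied across the same libraries. The miRNA rows summed to 29.4, 31.6, 9.54, 15.0 and 33.6 counts per M in bleomycin males, against 22.1, 15.0, 16.8, 9.02 and 11.0 in sham males. In bleomycin females they summed to 13.3, 14.5, 13.8, 14.0 and 33.0, against 22.7, 19.7, 16.8, 13.7 and 15.1 in sham females. In males, the miRNA sums of bleomycin libraries 1, 2 and 5 lay above every sham male, and so did their snoRNA sums. In females, the miRNA rows of bleomycin libraries 1 to 4 lay within or below the sham range while the snoRNA sums of libraries 1, 2 and 3 lay above every sham female. A further 472 small RNA rows were drawn from the types snRNA, scaRNA, misc_RNA, ribozyme, Y RNA and vault RNA. They summed to between 4.29 and 13.9 counts per M in bleomycin males and between 5.16 and 8.99 in sham males. The ratio of their group means was 1.28 in males and 0.957 in females. This sum and the miRNA sum took all rows of their types, without the FPKM filter of the members. The part of whatever raises these rows in a library was not tested.

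**Figure D1:**
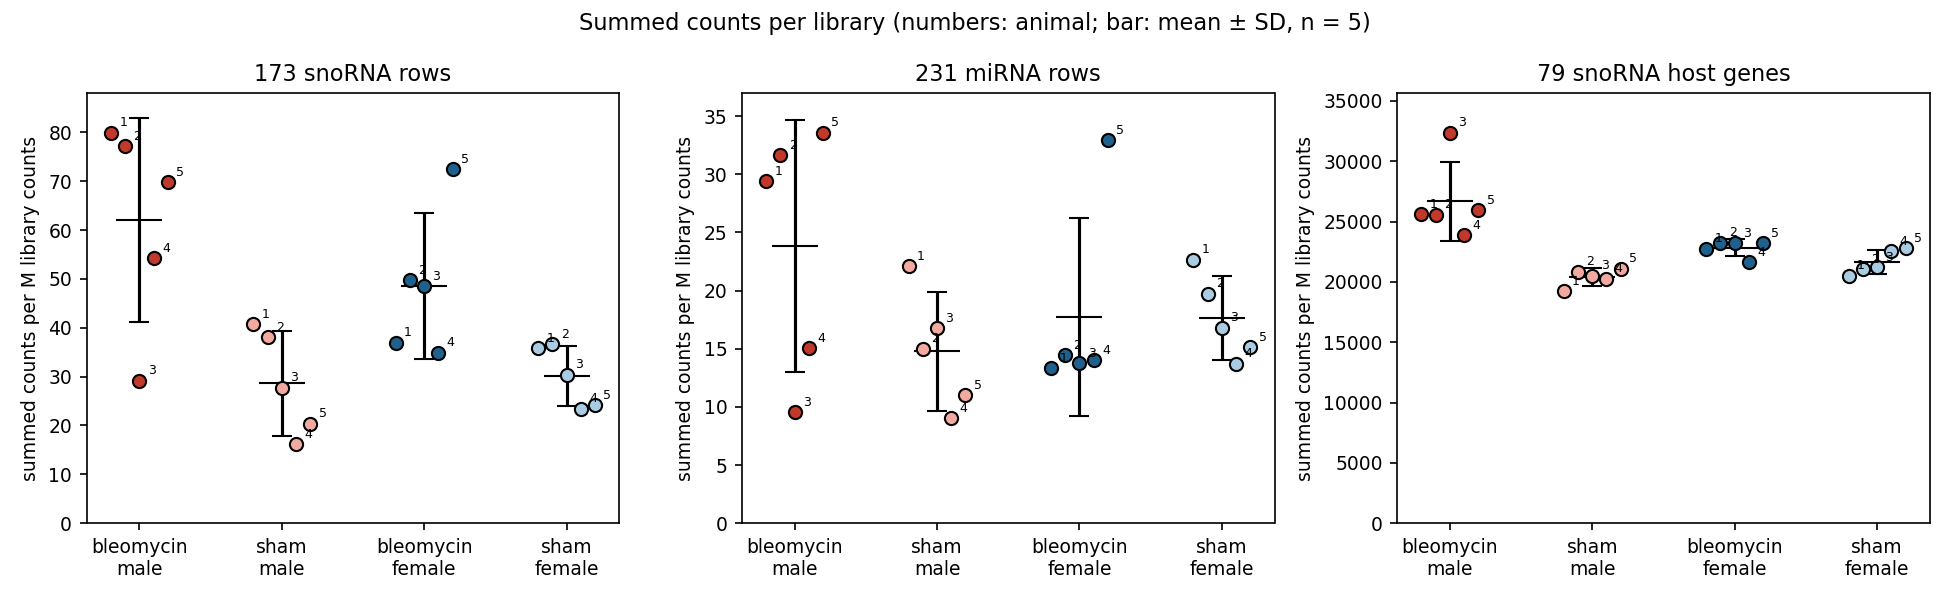
Summed counts per M library counts of the 173 snoRNA members, of the 231 miRNA rows and of the 79 host genes of snoRNAs in each library (points, numbered by animal), with the mean ± SD of 5 animals per group. The snoRNA sums of bleomycin males run from 29.2 to 80.0 and those of sham males from 16.1 to 40.8, and bleomycin male 3 is low in snoRNA and miRNA rows but highest in host genes, at 32371 counts per M.

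In males, snoRNAs were higher after bleomycin across most of the set. Of 173 members 58 rose and 2 fell (edgeR quasi-likelihood test, adjusted p under 0.05 over all 15875 genes tested, as for every adjusted p below). That is 33.5% of the members rising, against 22.6% of all genes tested, and 19.3% of all genes fell. The median log2 fold change of the members was 0.98, against 0.04 for all genes tested. Of the 173 members 158 were positive, as were 8455 of all 15875 genes. Counts by sign carry no test, since rows of the same libraries are not independent. Of the 58 rises 54 also reached a log2 fold change of 1, the second condition of the study's own rule, as did 1233 of the 3581 rises over all genes. Over all rows tested that is 54 of 173 members, against 7.77% of all genes. Rows with few counts need a large fold change to be called.

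Calls followed the number of counts. Of 51 members with a mean of at least 20 counts 31 rose and 1 fell, of 89 members with 5 to 20 counts 24 rose and 1 fell, and of 33 members under 5 counts 3 rose. Their median log2 fold changes were 1.18, 0.96 and 0.76. The share of all genes called at the same depths was not counted, so these strata have no like comparison. The 5 bleomycin males lay above all 5 sham males in 17 members, or 9.83%, against 12.6% of all genes tested.

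The count of calls in males depended on the 5 libraries with transcripts of other organs. Without them, 3 bleomycin males and 3 sham males remained, and 8 members rose and none fell, while 17.6% of all genes still rose. The median log2 fold change of the members was then 0.77. Fitted on the male groups alone, 30 members rose and none fell, while 15.1% of all genes rose. With the mitochondrial percentage as a covariate, 39 of 173 members rose and 2 fell, a rising share close to the 22.1% of all genes that rose in that fit. Leaving out any 1 of the 20 libraries gave between 42 and 70 calls.

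**Figure D2:**
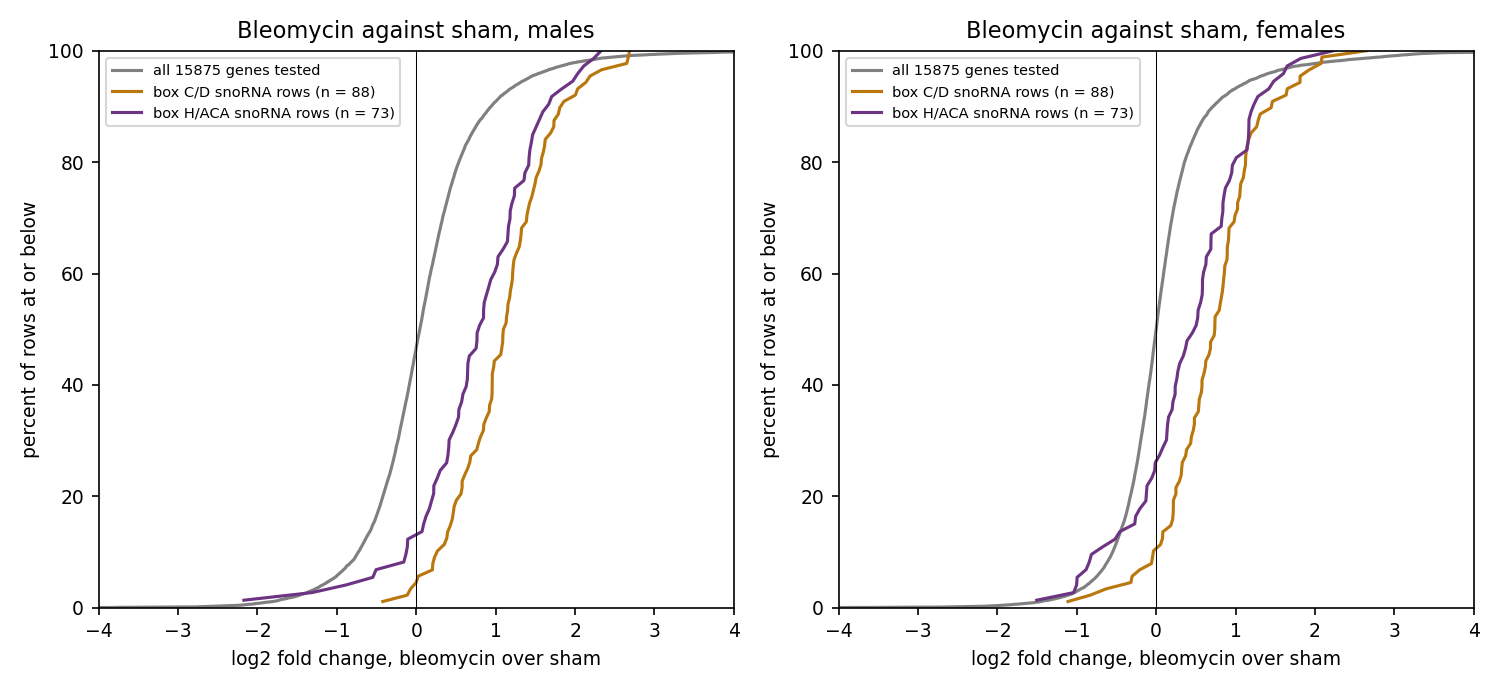
Cumulative share of rows (percent, vertical axis) by log2 fold change of bleomycin over sham (horizontal axis), for all 15875 genes tested (grey), box C/D members (ochre) and box H/ACA members (purple), in males and females. Both snoRNA curves lie to the right of the grey curve over most of their length, with medians of 1.11 and 0.80 in males and 0.74 and 0.50 in females.

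Among box C/D members in males 31 of 88 rose and none fell, with a median log2 fold change of 1.11. Snord86, on chromosome 3 (117479698 to 117479783) inside Nop56, had 13.8, 9.48, 4.52, 7.20 and 9.78 FPKM in bleomycin males, against 3.44, 2.70, 2.24, 1.01 and 0.792 FPKM in sham males. The groups did not overlap, and Snord86 rose by 2.03 ± 0.38 on the log2 scale (SE, adjusted p = 0.000333). In human cells the SNORD86 sequence takes part in the control of splicing of its own host, the snoRNA core protein gene NOP56.

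LOC120100233 (SNORD22) had 31.1, 36.2, 14.0, 19.6 and 27.7 FPKM in bleomycin males, against 12.5, 12.4, 6.85, 4.40 and 4.21 FPKM in sham males. All bleomycin males lay above all sham males, and it rose by 1.62 ± 0.37 (adjusted p = 0.00179). Without the 5 libraries with transcripts of other organs its log2 fold change was 1.18 (adjusted p = 0.0755). Snord30, in the same host transcript as LOC120100233, had 18.9, 19.8, 5.20, 10.0 and 11.9 FPKM in bleomycin males, against 6.66, 5.88, 4.19, 3.14 and 0.811 FPKM in sham males. Only bleomycin male 3 lay within the sham range, and the row rose by 1.60 ± 0.47 (adjusted p = 0.0109; 1.13 and adjusted p = 0.148 without those 5 libraries).

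Snord123 had the largest log2 fold change of the named members in males. It stood at 5.46, 5.19, 2.01, 0.593 and 3.64 FPKM in bleomycin males, against 0.871, 0.495, 0.271, 0.376 and 0.110 FPKM in sham males. Bleomycin male 4 lay within the sham range and the others above it, and the row rose by 2.69 ± 0.59 (adjusted p = 0.0013; 2.03 and adjusted p = 0.0638 without the 5 libraries with transcripts of other organs). LOC120095461, of the SNORD91 family inside the ribosome maturation gene Tsr1, rose by 1.79 ± 0.43 (adjusted p = 0.00289; 1.53 and adjusted p = 0.0579 without those 5 libraries).

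LOC120098677 (MBII-202 family, class not given, inside Rpl13) had 16.5, 12.0, 8.83, 4.44 and 11.7 FPKM in bleomycin males, against 6.99, 6.31, 2.85, 1.27 and 3.94 FPKM in sham males. Only bleomycin male 4 lay within the sham range, and the row rose by 1.28 ± 0.39 (adjusted p = 0.0132; 1.07 and adjusted p = 0.166 without those 5 libraries). Snord37l, inside the elongation factor gene Eef2, stood among the 10 highest rows and did not pass the test, with log2 fold changes of 0.92 ± 0.40 in males (adjusted p = 0.0732) and 0.74 ± 0.40 in females (adjusted p = 0.205).

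Among box H/ACA members in males 23 of 73 rose and 2 fell, with a median log2 fold change of 0.80. Snora64, which lies on chromosome 10 (13748139 to 13748272) inside Rps2 and guides the large-subunit ribosomal RNA in humans, had 8.69, 6.52, 3.20, 6.66 and 5.90 FPKM in bleomycin males, against 3.09, 2.09, 1.76, 1.30 and 2.23 FPKM in sham males. The groups did not overlap, and it rose by 1.51 ± 0.31 (adjusted p = 0.000719). Snora2l2, inside the chromatin regulator gene Kansl2, had 9.04, 11.1, 5.18, 7.66 and 8.47 FPKM in bleomycin males, against 3.64, 3.47, 4.03, 4.70 and 2.84 FPKM in sham males. It did not overlap either and rose by 1.09 ± 0.25 (adjusted p = 0.00183; 0.91 and adjusted p = 0.0537 without the 5 libraries with transcripts of other organs).

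LOC120099441 (SNORA70) had 32.8, 29.3, 9.52, 20.4 and 25.7 FPKM in bleomycin males, against 12.3, 13.9, 9.37, 2.72 and 9.87 FPKM in sham males. Bleomycin male 3 lay among the sham males and the other 4 above them, and the row rose by 1.24 ± 0.36 (adjusted p = 0.00964; 1.15 and adjusted p = 0.109 without those 5 libraries). Snora53, inside the nuclear lamina gene Tmpo, rose by 1.15 ± 0.35 in males (adjusted p = 0.0133) and had a log2 fold change of -0.12 ± 0.35 in females (adjusted p = 0.839). The row of the SNORA51 family, LOC120095430, inside the proteasome gene Psmc5, had only 41 counts over the 5 bleomycin males. Its male log2 fold change of 1.59 ± 0.62 (adjusted p = 0.0443) lost its call without any 1 of 9 libraries, namely bleomycin male 1, 2 or 4, sham male 1, 2, 3 or 4, bleomycin female 2 or sham female 2, with adjusted p up to 0.128 (without bleomycin male 1). Without the 5 libraries with transcripts of other organs its log2 fold change was 2.41 (adjusted p = 0.0531).

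Both members that fell in males belong to the SNORA17 family, which has 96 rows in the table, 7 of them members, so reads may be shared among near-identical copies and each row is uncertain. LOC120103317, on chromosome 5 (103919376 to 103919499) with no host gene in the table, had 6.64, 3.37, 2.19, 4.01 and 5.96 FPKM in bleomycin males, against 8.63, 10.7, 8.88, 6.64 and 4.89 FPKM in sham males. The groups overlapped, and it fell, with a log2 fold change of -0.88 ± 0.30 (adjusted p = 0.0232). Its call was lost without bleomycin male 2, bleomycin male 3 or sham male 2 (adjusted p = 0.0578, 0.0534 and 0.0616). LOC120093450, on chromosome 6, stood at 0.270, 0, 0.194, 0.0467 and 0.126 FPKM in bleomycin males (9 counts in all), against 1.04, 0.621, 1.17, 0.00837 and 0.759 FPKM in sham males, and its log2 fold change was -2.17 ± 0.67 (adjusted p = 0.0138). Without the 5 libraries with transcripts of other organs neither row was called (adjusted p = 0.0788 and 0.183).

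The other 5 SNORA17 members did not pass the test in males. LOC120102039, which has no host gene in the table, had a log2 fold change of 1.18 ± 0.49 in males (adjusted p = 0.0591) and rose by 1.48 ± 0.49 in females (adjusted p = 0.0373). In females it stood at 2.12, 4.10, 5.00, 2.92 and 4.52 FPKM after bleomycin, against 0.770, 1.65, 2.35, 0.738 and 0.946 FPKM in sham animals. Bleomycin female 1 lay below sham female 3 and the other 4 above all sham females. This call was lost without bleomycin female 2, 3 or 5 or sham female 1, 2, 4 or 5, with adjusted p up to 0.0902 (without sham female 4), and without the 5 libraries with transcripts of other organs (1.33, adjusted p = 0.0857). Of the 9 members whose log2 fold change was negative in both sexes, 5 are SNORA17 rows. These families were looked at together after their values were seen.

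In females, the same direction prevailed with fewer calls. Of 173 members 10 rose and none fell, which is 5.78% rising and less than the 13.2% of all genes tested that rose in females, while 8.38% of all genes fell. The median log2 fold change was 0.60, against -0.00 for all genes tested. Of 173 members 142 were positive, as were 7936 of all 15875 genes. The 5 bleomycin females lay above all 5 sham females in 14 members, or 8.09%, against 14.9% of all genes tested. At an unadjusted p under 0.05 there were 41 of 173 members higher and 1 lower, against 3062 of all 15875 genes higher and 2377 lower. Limma on log2(FPKM + 0.1) called 21 members, and the fit on the female groups alone called 24, of which 23 rose and 1 fell. In that fit 18.3% of all genes rose, so the members' rising share stayed below that of all genes. Without sham female 4 the number called was 6. All 10 rises of the main fit reached a log2 fold change of 1, as did 867 of the 2100 rises over all genes. Over all rows tested that is 5.78% of the members, against 5.46% of all genes.

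Of these 10 rows 4 are box C/D and 4 box H/ACA. LOC120094021 (U82P), whose class is not given, had 21.9, 31.3, 27.7, 16.5 and 30.6 FPKM in bleomycin females, against 16.5, 11.7, 12.9, 8.66 and 9.04 FPKM in sham females. Only bleomycin female 4 and sham female 1 met, both at 16.5 FPKM, and the row rose by 1.09 ± 0.24 (adjusted p = 0.00231). In males it had 36.8, 36.4, 22.6, 28.5 and 28.8 FPKM after bleomycin, against 13.4, 12.7, 13.1, 7.82 and 10.5 FPKM in sham animals. The male groups did not overlap, and it rose there by 1.36 ± 0.24 (adjusted p = 0.000196).

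Snord28b is 1 of 3 members called in females but not in males, with LOC120093043 and LOC120102039. It had 2.37, 3.09, 3.96, 1.59 and 3.75 FPKM in bleomycin females, against 0.977, 1.15, 0.397, 0.335 and 0.574 FPKM in sham females. The groups did not overlap, and it rose by 1.93 ± 0.44 (adjusted p = 0.00354). In males its log2 fold change was 0.84 ± 0.42 (adjusted p = 0.111), and the difference between the sexes was 1.08 ± 0.60 (interaction, adjusted p = 0.257). LOC120093043, of the SNORA19 family inside Rpl7l1, rose by 1.28 ± 0.33 in females (adjusted p = 0.00788), had a log2 fold change of 0.41 ± 0.32 in males (adjusted p = 0.319) and an interaction of 0.87 ± 0.46 (adjusted p = 0.233).

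In both sexes 7 members rose, or 12.1% of the 58 male calls and 70.0% of the 10 female calls. The same overlap was not counted over all genes tested, so these shares have no background to be read against. The 7 were LOC120094021, Snora64, LOC120100233 (SNORD22), Snord45a, LOC120094453 (Z40, inside Taf1d), LOC120096111 (SNORA42/SNORA80 family, inside Rpl6) and LOC120094437 (SNORD18, inside Rpl4). Snord45a, a guide for the small-subunit ribosomal RNA in humans, lies inside the prenylation enzyme gene Rabggtb. It had 7.27, 8.62, 9.15, 9.94 and 11.9 FPKM in bleomycin females, against 3.92, 3.20, 5.02, 2.45 and 3.58 FPKM in sham females, and 10.9, 10.2, 3.90, 10.8 and 11.6 FPKM in bleomycin males, against 8.24, 4.31, 3.38, 2.71 and 3.13 FPKM in sham males. The female groups did not overlap, while in males bleomycin male 3 lay low and sham male 1 high. It rose by 1.31 ± 0.32 in females (adjusted p = 0.00643) and by 1.08 ± 0.32 in males (adjusted p = 0.0116; 0.77 and adjusted p = 0.211 without the 5 libraries with transcripts of other organs).

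Snora64 had 3.02, 6.42, 6.10, 4.84 and 5.95 FPKM in bleomycin females, against 1.97, 2.11, 1.34, 1.07 and 1.84 FPKM in sham females. It did not overlap and rose by 1.60 ± 0.31 (adjusted p = 0.000847). LOC120100233 had 12.5, 22.5, 22.6, 12.7 and 29.4 FPKM in bleomycin females, against 11.1, 10.2, 8.92, 3.02 and 7.29 FPKM in sham females. It did not overlap either and rose by 1.27 ± 0.37 (adjusted p = 0.0175).

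The other 3 had female calls that single libraries decided. LOC120094453 rose by 1.38 ± 0.43 in females (adjusted p = 0.028), a call lost without bleomycin female 5 or sham female 2, 4 or 5 (adjusted p up to 0.095, without bleomycin female 5). LOC120096111 rose by 1.14 ± 0.34 (adjusted p = 0.0218), a call lost without bleomycin female 3 or sham female 3 or 4 (adjusted p up to 0.0601, without sham female 4). LOC120094437 rose by 1.11 ± 0.35 (adjusted p = 0.0273), a call lost without bleomycin female 2, 3 or 5 or sham female 1, 3, 4 or 5 (adjusted p up to 0.072, without sham female 3). In males the same rows rose by 1.82 ± 0.44, 1.42 ± 0.35 and 1.18 ± 0.35 (adjusted p = 0.00276, 0.0031 and 0.0112). Without the 5 libraries with transcripts of other organs none of the 3 female calls held (adjusted p = 0.0583, 0.0611 and 0.0963), and in males those of LOC120096111 and LOC120094437 were lost (adjusted p = 0.0912 and 0.124). Averaged over the sexes, 73 members rose and 1 fell (42.2% rising, against 24.2% of all genes tested rising and 21.0% falling), and the member that fell was LOC120103317.

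**Figure D3:**
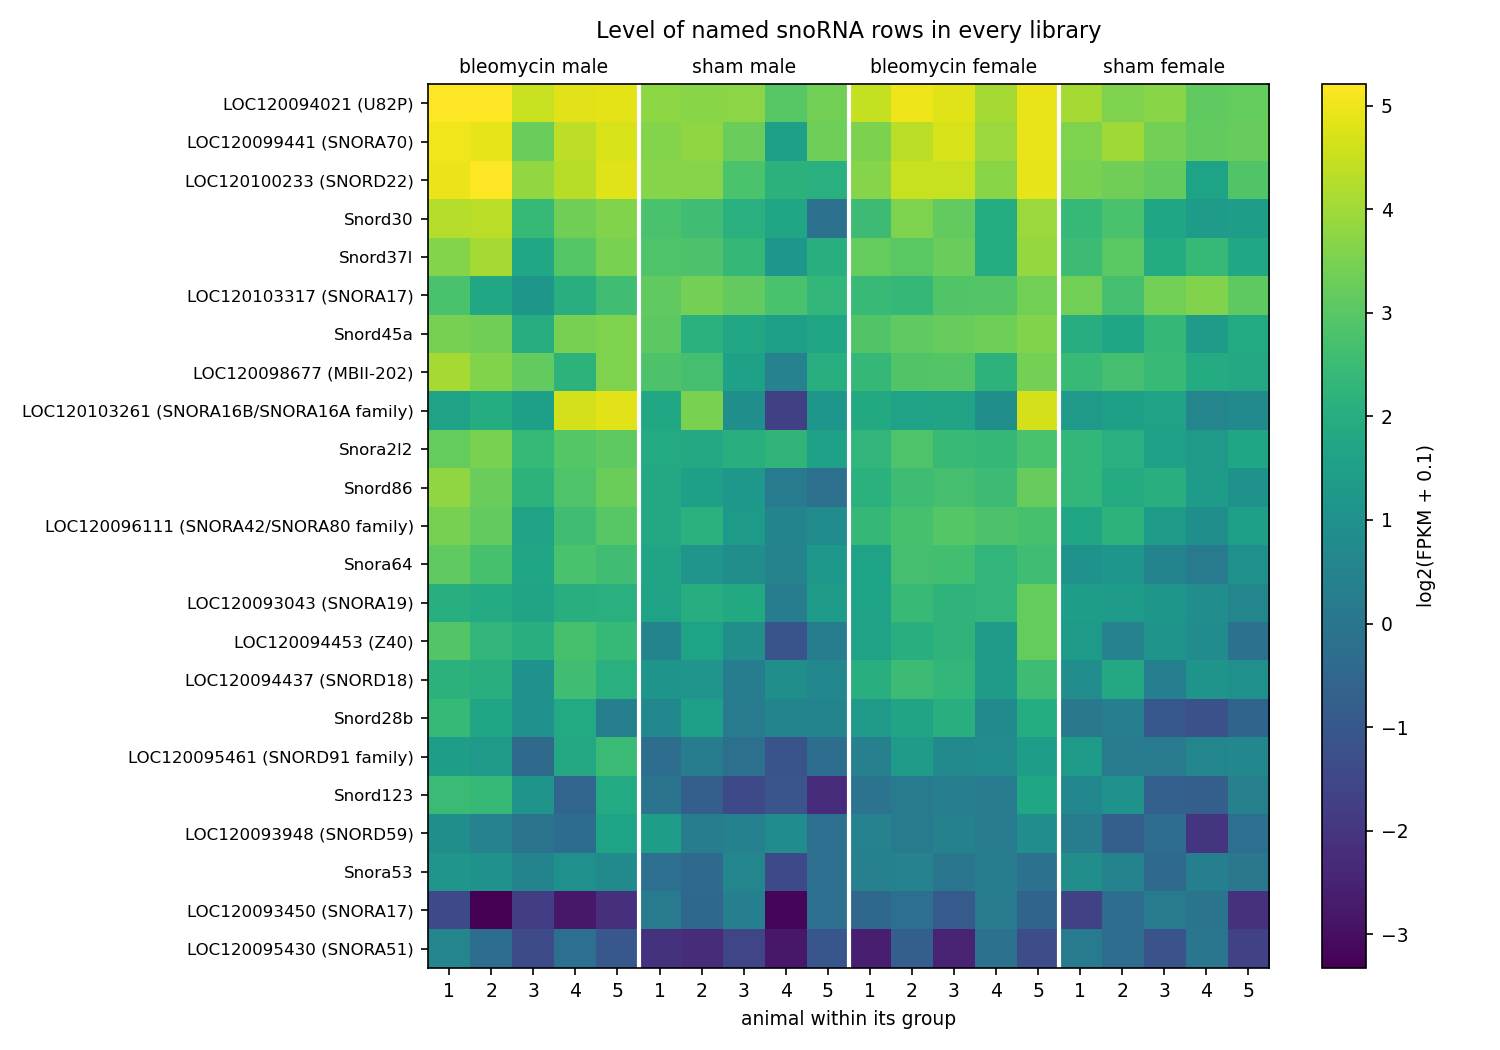
Level of named snoRNA rows in each of the 20 libraries as log2(FPKM + 0.1), with rows ordered by mean FPKM and columns by animal within its group. The top row, LOC120094021, is brighter in all bleomycin males (22.6 to 36.8 FPKM) than in any sham male (7.82 to 13.4 FPKM), and LOC120103261 is bright in 3 bleomycin libraries and in sham male 2.

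Few rows were called between female and male lungs. Among sham animals no member was called (edgeR, adjusted p under 0.05), with 0.523% of all genes called. DESeq2 gave an adjusted p for only 50 of the 173 members and called none of those. At an unadjusted p under 0.05 (edgeR), 5 of 173 members were higher and 4 lower in females, against 699 of all 15875 genes higher and 933 lower. The members' median log2 fold change of females over males was 0.06 (-0.05 without the 5 libraries with transcripts of other organs). Among bleomycin animals 1 member was called, LOC120093450, against 20.4% of all genes. At an unadjusted p under 0.05 there were 2 members higher and 5 lower, against 3022 of all 15875 genes higher and 2704 lower. The members' median was -0.32 (-0.20 without the 5 libraries with transcripts of other organs), against -0.02 for all genes tested. Of 173 members 140 were lower in females, as were 8272 of all 15875 genes. LOC120093450 had 0.614, 0.774, 0.438, 1.06 and 0.574 FPKM in bleomycin females, against 0.270, 0, 0.194, 0.0467 and 0.126 FPKM in bleomycin males. These did not overlap, with a log2 fold change of 2.09 ± 0.67 (adjusted p = 0.0346), and the call was lost without bleomycin male 2 or 5 or bleomycin female 2 or 4 (adjusted p up to 0.0832, without bleomycin female 4), and without the 5 libraries with transcripts of other organs (1.71, adjusted p = 0.149).

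No member was called for the sex by treatment interaction, the female response minus the male response, where 5.69% of all genes were called. DESeq2 called none. At an unadjusted p under 0.05 (edgeR) there were 1 positive and 10 negative members, against 2362 positive and 1841 negative of all 15875 genes. The median interaction was -0.41 over the 173 members and 0.02 without the 5 libraries with transcripts of other organs, so its sign rested on those libraries. Snord123 had an interaction of -2.44 ± 0.80 (adjusted p = 0.0685), which passed the threshold without bleomycin male 4 (adjusted p = 0.014) or bleomycin female 5 (adjusted p = 0.0419). In females it stood at 0.844, 1.02, 1.14, 1.06 and 3.23 FPKM after bleomycin, against 1.47, 1.99, 0.511, 0.4998 and 1.23 FPKM in sham animals. The female groups overlapped, with a log2 fold change of 0.25 ± 0.55 (adjusted p = 0.791).

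Most members lie inside another gene. Of 173 members 135 lay within a host gene on the same strand, in 79 different hosts. Of these members 49 lay in hosts whose symbol begins with Rpl or Rps, a rule that also takes in Rpl7l1. For 134 members the host was itself tested. In males the member's log2 fold change was above its host's in 104 of 134 pairs, with medians of 1.01 for members and 0.53 for hosts. In females it was above in 103 of 134 pairs, with medians of 0.68 and 0.10. These pairs are not independent, since members share hosts.

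Of 78 distinct hosts tested 49 rose and 4 fell in males, where 22.6% of all genes rose, and 18 rose and 1 fell in females, where 13.2% did. Of the 46 male members with a tested host that rose, 38 had a host that rose and 8 a host that was not called. Of the 9 such members in females, 2 had a host that rose and 7 a host that was not called. Over all 134 pairs, whether or not the member was called, the host rose in 95 in males and in 35 in females. Rps2, a small-subunit protein gene and host of Snora64, averaged 761 ± 233 FPKM in bleomycin males and 416 ± 67.8 FPKM in sham males, and 593 ± 16.9 FPKM in bleomycin females and 420 ± 36.2 FPKM in sham females (SD, n = 5). Kansl2, host of Snora2l2, averaged 25.3 ± 1.61 FPKM in bleomycin males and 24.4 ± 3.65 FPKM in sham males, with a log2 fold change of 0.02 ± 0.08 (adjusted p = 0.846), beside the rise of the snoRNA row by 1.09. The 38 members with no host gene in the table had a median log2 fold change of 0.66 in males and 0.23 in females.

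**Figure D4:**
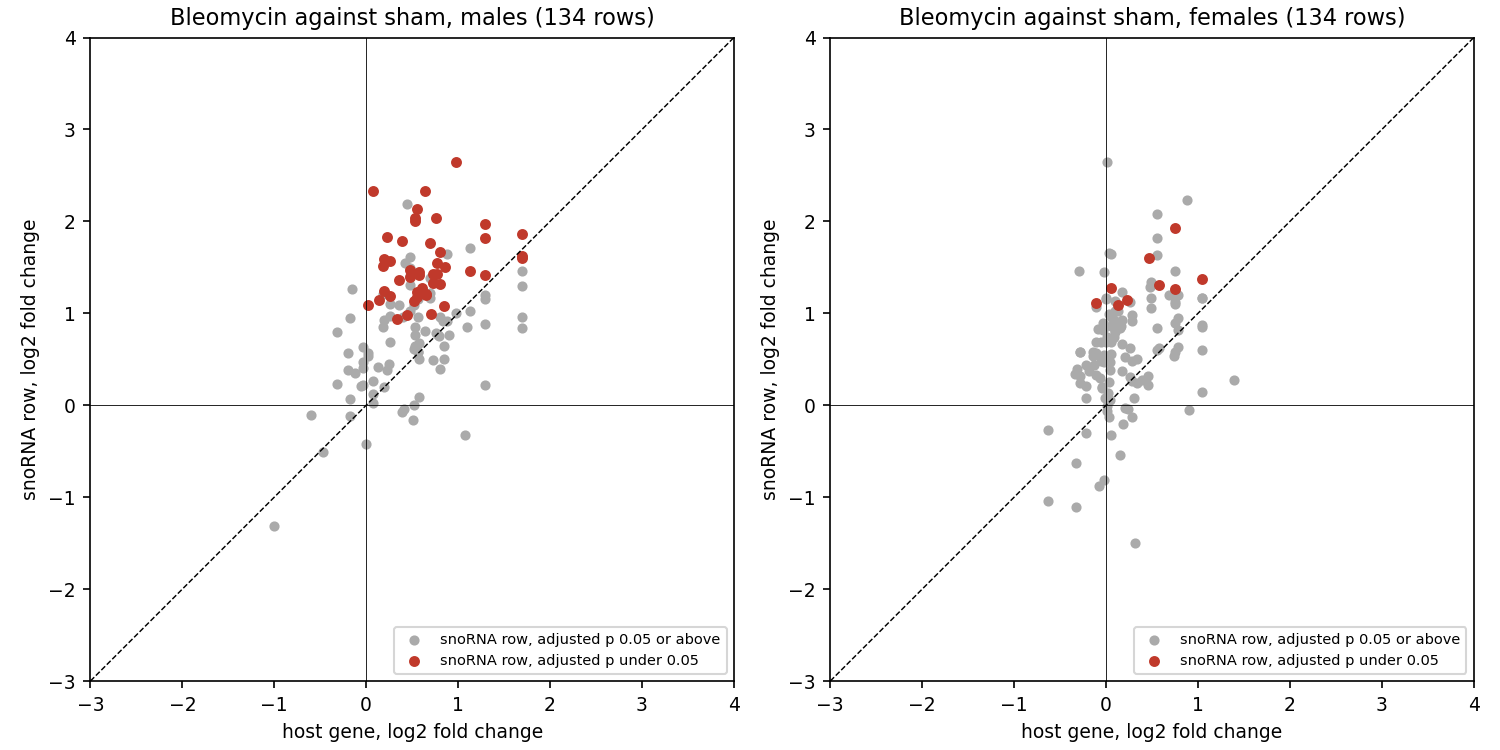
Log2 fold change of 134 snoRNA rows (vertical axis) against that of the host gene each lies in (horizontal axis), bleomycin over sham, with the line of equal change dashed and rows under an adjusted p of 0.05 in red. Points lie above the dashed line in 104 of 134 pairs in males and 103 of 134 in females.

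Hosts that carry several members allow rows of 1 transcript to be set side by side. There were 7 hosts with at least 4 members, 36 members in all. Taf1d, a subunit of the RNA polymerase I initiation factor, rose by 1.29 ± 0.25 in males (adjusted p = 0.000534) and by 1.04 ± 0.25 in females (adjusted p = 0.00544), and of its 7 members 3 rose in males and 1 in females. Its members ranged from 0.22 (LOC120094454, SNORA8) to 1.97 (LOC120094464, SNORA1, adjusted p = 0.0039) on the log2 scale in males. LOC120094464 had 8.99, 3.88, 3.09, 4.72 and 8.88 FPKM in bleomycin males, against 1.79, 2.27, 1.06, 0.139 and 1.85 FPKM in sham males, and the groups did not overlap.

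LOC100912041, a long non-coding RNA that the table calls uncharacterized, holds 7 box C/D members, among them Snord28b, Snord30 and LOC120100233. It averaged 46.7 ± 21.1 FPKM in bleomycin males and 14.2 ± 8.49 FPKM in sham males, and rose by 1.69 ± 0.34 (adjusted p = 0.000685). In females it averaged 32.9 ± 8.16 FPKM after bleomycin and 19.3 ± 6.96 FPKM in sham animals (log2 fold change 0.75 ± 0.33, adjusted p = 0.116). Its members ran from 0.84 to 1.86 in males, with 3 rising, and from 0.58 to 1.93 in females, with 2 rising. The 3 male calls, of LOC120100233, Snord30 and LOC120100232, were lost without the 5 libraries with transcripts of other organs.

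Nop56, a core protein of box C/D particles, rose by 0.53 ± 0.09 in males (adjusted p = 0.000238) and by 0.56 ± 0.09 in females (adjusted p = 0.000252). Its 5 members ran from 0.65 to 2.03 in males, where 2 rose, and from 0.60 to 2.08 in females, where none was called by edgeR. In Rpl13a, a large-subunit protein gene, the 4 members ran from 1.31 to 1.48 in males, where 2 rose and the host rose by 0.48 ± 0.11 (adjusted p = 0.00183). Both male calls, of LOC120100339 and Snord33, were lost without the 5 libraries with transcripts of other organs. That of Snord33 was also lost without bleomycin male 1 or 2 or sham male 4 or 5. In females the same 4 members ran from -0.30 to 0.44, beside a host at -0.22 ± 0.11 (adjusted p = 0.16). No member was called for the interaction, so this is not a tested difference between the sexes. The 4 members inside Eif4a2, a translation initiation factor gene, ran from 0.22 to 0.63 in males and from 0.24 to 0.58 in females with none called, and the host stood at -0.03 ± 0.19 and -0.29 ± 0.19 (adjusted p = 0.905 and 0.297).

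**Figure D5:**
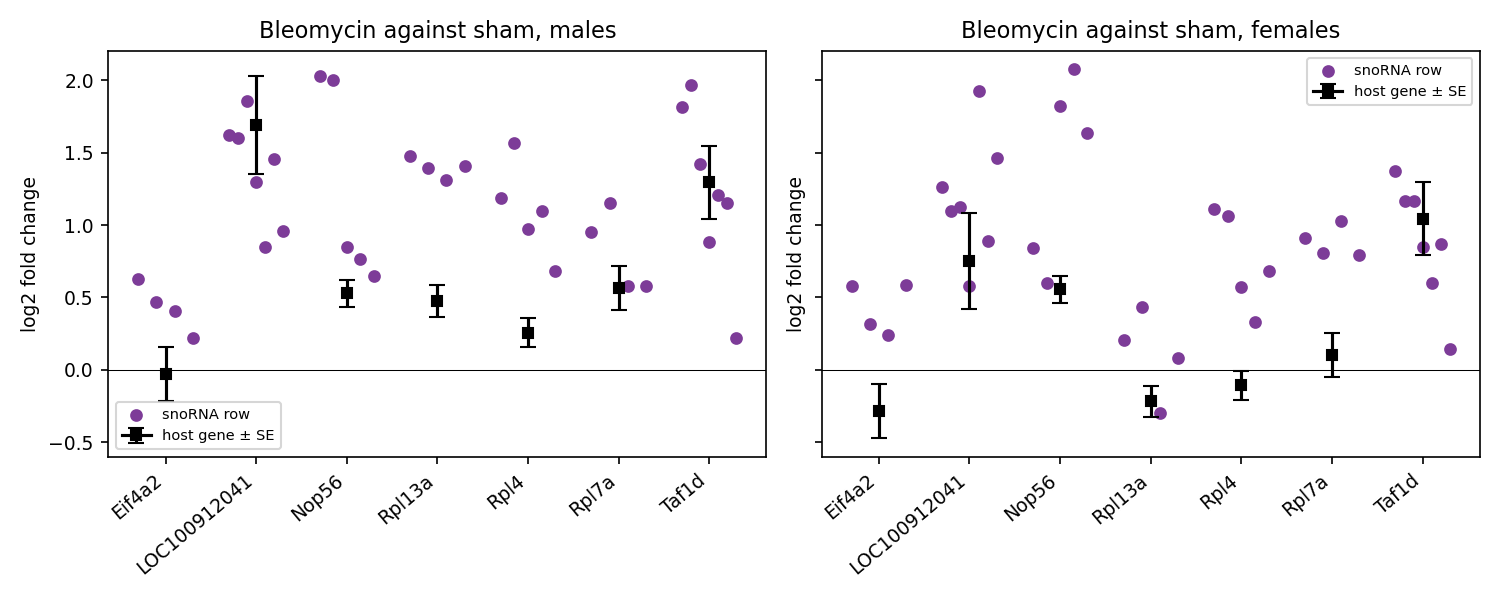
Log2 fold change, bleomycin over sham, of each snoRNA row (purple) and of its host gene (black square ± SE) for the 7 hosts that carry at least 4 members, in males and in females. The 4 Rpl13a rows lie between 1.31 and 1.48 in males and between -0.30 and 0.44 in females, and the Eif4a2 rows reach at most 0.63 in males and 0.58 in females.

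One row was uneven in a way its neighbours were not. LOC120103261 (SNORA16B/SNORA16A family) lies on chromosome 5 (144505211 to 144505346, plus strand) inside LOC120102992, a long non-coding RNA that the table calls uncharacterized. It had 2.94, 3.82, 2.71, 25.0 and 28.0 FPKM in bleomycin males, against 3.37, 11.2, 1.81, 0.210 and 2.15 FPKM in sham males. In bleomycin females it had 3.56, 2.93, 3.02, 1.80 and 25.2 FPKM, against 2.33, 2.79, 2.94, 1.36 and 1.58 FPKM in sham females. Bleomycin male 4 and 5 and bleomycin female 5 stood at 25.0 FPKM or more, sham male 2 at 11.2 and the other 16 libraries under 4 FPKM.

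Its log2 fold changes of 1.71 ± 0.86 in males and 1.65 ± 0.87 in females did not pass the test (adjusted p = 0.119 and 0.189). LOC120103274 (SNORA44), in the same host, had 9.45, 9.94, 6.14, 5.00 and 7.04 FPKM in bleomycin males, against 4.57, 3.83, 2.61, 0.808 and 1.37 FPKM in sham males, with bleomycin male 4 the lowest of its group. It did not overlap and rose by 1.47 ± 0.39 (adjusted p = 0.00535; 1.20 and adjusted p = 0.0992 without the 5 libraries with transcripts of other organs). The host had 20.5, 22.1, 22.1, 12.9 and 18.3 FPKM in bleomycin males, so bleomycin male 4 was low in the host and high in LOC120103261.

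Rows of the families U14, U17 and U13, which act in pre-rRNA processing, did not pass the test in either sex (0 of 6 called by edgeR, with 1 under an unadjusted p of 0.05 in each sex). In males 33.5% of all members and 22.6% of all genes rose, and in females 5.78% and 13.2%. With 6 rows the count cannot tell these families from the other members. Snord14b, inside Rps3, had a log2 fold change of 1.50 ± 0.65 in males (adjusted p = 0.0701) and 0.83 ± 0.64 in females (adjusted p = 0.383). Snora73bl1, a U17-like row inside Rpsa, had 0.50 ± 0.48 in males (adjusted p = 0.424) and 1.23 ± 0.49 in females (adjusted p = 0.0787). The 2 SNORD14 rows inside the chaperone gene Hspa8 had 0.38 ± 0.69 and 0.56 ± 0.53 in males and -1.11 ± 0.69 and -0.63 ± 0.53 in females. These 6 rows averaged 0.492 to 2.43 FPKM, and they were grouped by name after their values were seen. The grouping does not hold every member with such a role: U22, needed for small-subunit maturation, is left out of it, and its row LOC120100233 rose in both sexes.

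Genes of most core proteins that bind snoRNAs rose in both sexes, where 22.6% of all genes rose in males and 13.2% in females. With the mitochondrial percentage as a covariate the female calls of Fbl, Nhp2 and Gar1 were lost (log2 fold changes of 0.25, 0.42 and 0.32, adjusted p = 0.29, 0.0607 and 0.165). Of the 4 core proteins of box C/D particles 3 rose and none fell in each sex. Fbl, the methyltransferase, averaged 39.7 ± 11.4 FPKM in bleomycin males and 26.3 ± 0.647 FPKM in sham males, with a log2 fold change of 0.58 ± 0.16 (adjusted p = 0.0069). In females its fold change was 0.48 ± 0.16 (adjusted p = 0.0377), a call lost without bleomycin female 1, 2 or 3 or any 1 of the 5 sham females (adjusted p up to 0.0978, without bleomycin female 3). Nop58 rose by 0.44 ± 0.10 in males (adjusted p = 0.00247) and by 0.74 ± 0.10 in females (adjusted p = 3.84e-05), while Snu13, which binds the kink turn of box C/D RNAs, had 0.00 ± 0.10 and 0.04 ± 0.10 (adjusted p = 0.988 and 0.819).

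Of the 4 listed core proteins of box H/ACA particles, 3 were found in the table, and 2 of those rose and none fell in each sex. Nhp2 averaged 15.8 ± 3.11 FPKM in bleomycin males and 9.68 ± 0.806 FPKM in sham males and rose by 0.69 ± 0.14 (adjusted p = 0.000536), and by 0.54 ± 0.14 in females (adjusted p = 0.00686). Gar1 rose by 0.70 ± 0.14 in males (adjusted p = 0.000797) and by 0.47 ± 0.14 in females (adjusted p = 0.0226), a female call lost without bleomycin female 2 or 3 or sham female 1 (adjusted p up to 0.0775, without bleomycin female 3). Nop10 had 0.24 ± 0.14 and 0.06 ± 0.14 (adjusted p = 0.164 and 0.805), and Dkc1 was not analysed here.

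Lists around these particles gave mixed counts, to be read against the 22.6% of all genes that rose in males and the 13.2% in females. Of 13 assembly factors 5 rose and 2 fell in males and 2 rose in females, and of 15 factors of end processing and trimming 2 rose and 3 fell in males and 5 rose in females. Of 15 genes of RNA polymerase I transcription 8 rose in males and 1, Taf1d, in females. Polr1d, a subunit shared by polymerases I and III, averaged 39.3 ± 5.54 FPKM in bleomycin males and 23.4 ± 2.61 FPKM in sham males and rose by 0.72 ± 0.09 (adjusted p = 6.61e-06). In females it averaged 27.6 ± 1.43 FPKM after bleomycin and 26.2 ± 1.16 FPKM in sham animals (log2 fold change 0.04 ± 0.09, adjusted p = 0.766). Of 21 rRNA processing factors 7 rose in males and 3 in females, and the female shares of the assembly and rRNA processing lists were close to that of all genes. The rRNA processing list includes the nucleolar chaperone gene Npm1, which rose by 0.53 ± 0.08 in males (adjusted p = 5.11e-05) and 0.34 ± 0.08 in females (adjusted p = 0.00394). Of 7 tested partners of rRNA modification 5 rose in males and 4 in females, with Nop56, Nop58 and Fbl counted here as well.

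Other short or unpolyadenylated classes gave a mixed picture beside the members. Of 40 miRNA rows tested 9 rose and none fell in males, with a median log2 fold change of 1.00, and 1 rose in females, with a median of 0.48. The rising share of the miRNA rows was close to the 22.6% of all genes in males and below the 13.2% in females. Of 28 snRNA rows 1 fell in males and none was called in females by edgeR, with medians of 0.41 and -0.20. Of 18 histone rows 5 rose in males (median 0.70), and 2 rose and 1 fell in females (median 0.25). The histone rows were picked by symbol, so not all need be replication-dependent or unpolyadenylated. The members' medians were 0.98 in males and 0.60 in females. How far poly-A capture sets the values of these classes was not tested.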

How the data were processed

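Lung poly-A RNA of 20 rats was sequenced in stranded paired-end libraries. Per the labels' protocols, reads were aligned with HISAT2 2.0 and quantified with StringTie 1.3.4. The labels name Ensembl 112 and Rnor 6.0 together, which are not 1 release, so the build is uncertain. The deposited table gives FPKM, made by the authors with StringTie per the labels, and counts, per the file headers. For 3308 of 3319 member values above 0 (99.7%) the deposited count equals FPKM times length times 1 constant per library, rounded up, so counts are derived from coverage and short rows get few. Use of strand in counting is not given in the sources used here. No column of an unmapped sample was present.

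edgeR 4.0.16 in R 4.3.3 was run on the deposited counts of the 15875 rows that pass the members' FPKM filter (TMM, robust quasi-likelihood test, 1 mean per group, Benjamini-Hochberg adjustment over all rows tested, two-sided, prior count 0.125). A row was called at an adjusted p under 0.05. Values after ± are the SE of a log2 fold change and otherwise the SD. The p-values measure the spread between animals. The fit was tested on simulated data, with changes set in bleomycin males and only in genes above a mean of 20 counts. Only 51 of the 173 members have a mean of at least 20 counts, so that test does not speak for the others. A host is the shortest gene of the table that contains the row on its strand. Alternatives were DESeq2 1.42.0, limma 3.58.1 on log2(FPKM + 0.1) and log2(FPKM + 1), other scalings and filters, covariates, a replicate block and each library left out.

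Named members are the 8 called rows with the smallest p per contrast of 2 groups (or 3 where none was called), the 10 with the highest mean FPKM and the 4 with the smallest interaction p, with their hosts and the genes of the lists around snoRNA particles. Some further rows given above, among them LOC120102039, LOC120103274, LOC120094464 and Snord14b, lie outside that rule and were picked by hand. The members and lists were chosen with earlier results of these data known. Of 19 listed long non-coding hosts (Gas5 and Snhg genes among them) none was found by symbol. The comparisons of bleomycin with sham and of females with males share groups. The miRNA libraries named in the labels were not analysed here. 1 named member and its host are not reported here.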

Additional observations from a re-analysis of the deposited data

Results flagged for a closer look

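Some libraries stood far from the other 4 of their group. In 128 groups looked at (24 named members and 8 library measures, each in 4 groups) 10 such values were found, and chance gives about 1 in 20 groups. Snord123 stood at 3.23 FPKM in bleomycin female 5, against 0.844 to 1.14 in the others. Snord28b stood at 2.73 FPKM in sham male 2, against 1.01 to 1.46. Snord45a stood at 3.90 FPKM in bleomycin male 3, against 10.2 to 11.6, and at 8.24 FPKM in sham male 1, against 2.71 to 4.31.

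LOC120103261 stood at 25.2 FPKM in bleomycin female 5, against 1.80 to 3.56 in the others, and at 11.2 FPKM in sham male 2, against 0.210 to 3.37. Over whole libraries, the miRNA rows summed to 33.0 counts per M in bleomycin female 5, against 13.3 to 14.5. The further small RNA rows (snRNA, scaRNA and other types) summed to 10.7 counts per M in the same library, against 6.45 to 7.37. Host genes of snoRNAs summed to 32371 counts per M in bleomycin male 3, against 23878 to 25931. The total of sham female 2 was 74.9 M counts, against 82.6 to 85.0 M.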

How the results depend on the processing

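Directions of the medians held for bleomycin against sham in both sexes under every alternative run, but counts of calls did not. In males the 60 calls became 33 with no filter on low values, 30 with only the groups compared and 8 without the libraries with transcripts of other organs, and leaving out 1 library gave 42 to 70. In females the 10 calls became 21 and 23 with limma on log2(FPKM + 0.1) and log2(FPKM + 1) and 24 with only the groups compared, and 6 to 14 with 1 library left out. Averaged over the sexes the 74 calls became 46 with no filter and 39 without the libraries with transcripts of other organs, and 58 to 87 with 1 left out. For females against males after bleomycin the 1 call became 2 with limma on log2(FPKM + 1) and 0 with no filter, filterByExpr, the filter at 2 FPKM, counts divided by 4, only the groups compared, either covariate (mitochondrial percent or library total) and without the libraries with transcripts of other organs, and 0 to 3 with 1 left out. The interaction had 0 calls, 1 with limma on log2(FPKM + 1), and 0 to 1 with 1 left out, and sham females against males had 0 under every alternative (of 50 members with an adjusted p in DESeq2). The replicate block gave 59, 13 and 70 calls in males, females and both averaged. Same-numbered animals correlated between -0.137 and 0.428, over 0.1 in 10 of 30 pairs. Animals with different numbers were not set beside them, so this range does not decide on pairing. The main fit used no pairs because the numbers were read as numbering the animals of a group.

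DESeq2 gave 55, 12 and 66 calls. For 66 results of single named rows under up to 35 alternatives each, 2115 of 2291 stayed on the same side of the threshold, 173 lost and 3 gained a call, and none changed sign. The causes were not tested, except that fewer samples entered some fits. The median member averages 11.7 counts, which limits what single rows can show. Fits of only the groups compared do not apply to the averaged contrast or the interaction.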
